A study of Mus musculus with 20 samples.

Results

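The 9 genes described here set the pace of the G1 phase of the cell cycle and were measured in 5 cell populations of the neonatal mouse subventricular zone. They were taken by name as the 3 D-type cyclins (Ccnd1, Ccnd2, Ccnd3), their kinase partners (Cdk4, Cdk6), 3 inhibitors of G1 kinases (Cdkn1a, Cdkn1b, Cdkn2c) and the retinoblastoma gene Rb1, which makes 9 of the 45705 genes measured. Each of the 9 passed the filter on low values, as did 27614 genes in all.

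D-type cyclins accumulate in response to growth signals and activate Cdk4 or Cdk6, and the active kinase phosphorylates the retinoblastoma protein, which then releases E2F transcription factors that drive the genes of DNA replication. Cdkn1a (p21) and Cdkn1b (p27) bind cyclin-kinase complexes and can hold a cell in G1, Cdkn2c (p18) binds Cdk4 and Cdk6 themselves, and p21 is a classic target of p53. In the germinal zones of the brain this switch is known to bear on whether a stem cell rests or divides, with p21 known as a brake on neural stem cell division and cyclin D2 and Cdk6 known for their part in postnatal neurogenesis.

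The cells came from Swiss Webster pups at postnatal day 5, unmanipulated, with pups of both sexes pooled by litter, and were sorted by surface antigens into 5 populations. Neural stem cells (NSC) were NG2-, CD140a-, CD133+ and CD15+. The 4 progenitor gates were all NG2+ and CD133-: BNAP/GRP1 was CD140a- and CD15+, GRP2/MP3 was CD140a- and CD15-, GRP3 was CD140a+ and CD15-, and PFMP was CD140a+ and CD15+. BNAP and GRP1 cells share a gate, as do GRP2 and MP3 cells, so neither pair is resolved, and the study names pericytes as a contaminant. Each population had 1 library in each of 4 batches (20 libraries, n = 4 a population). Values are RPKM, which divides a gene's reads by its length and by the reads of the library. Different genes of a library are set side by side below on this scale. The RNA was amplified from polyA, and whether reads then scaled with gene length was not tested. Shares and orders of different genes rest on that assumption. In such bulk samples, fewer cells of a type and less RNA per cell cannot be told apart.

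The table gives no read totals. Small values of a gene stood in ratios of small whole numbers between libraries, and the most frequent ratio placed the relative depth between 0.0395 of BNAP/GRP1 1 in BNAP/GRP1 4 and 1.41 in BNAP/GRP1 3, where the digit after a population is the batch. This ratio is uncertain by a small whole-number factor in batch 4, so no interval for counting error could be attached to any value. It did not go with the number of genes detected, which was 38191 in BNAP/GRP1 4 and 20597 in BNAP/GRP1 3. The low ratio of BNAP/GRP1 4 is therefore not taken as a known low depth. Batch 3 stood apart. Its 5 populations were nearly alike (r of log2 values 0.94 to 0.97 between them, against medians of 0.747 to 0.844 within the other batches), and they held 228400 to 252700 summed RPKM of 5 erythrocyte genes, 1025 to 1165 of 8 lung epithelium genes and 1108 to 1306 of 5 alveolar macrophage genes. Outside batch 3 those lists reached at most 26510, 80.8 and 57.7 summed RPKM. The other batches separated by gate on the ependymal and oligodendrocyte progenitor (OPC) lists. The sum of 6 ependymal markers was 2634 to 13010 in NSC and at most 522 elsewhere. That of 7 OPC markers was 360 to 3556 in GRP3 and PFMP and at most 169 elsewhere. The OPC list holds Pdgfra and Cspg4, the genes of the sorting antigens CD140a and NG2, so the gates in part fixed this separation. It also holds Lhfpl3, which the study reports as the top upregulated gene of GRP3. A list of 9 NSC and radial glia markers did not set NSC apart in batches 1, 2 and 4. Its sum was 3919 to 4913 in NSC, 6982 to 12940 in PFMP and 3484 to 15100 in GRP3. In GRP2/MP3 it was 341 to 5796 and in BNAP/GRP1 454.5 to 4737. In batch 3 the ependymal list still set NSC apart, at 1149 summed RPKM against 3.72 to 5.79 in the 4 progenitors. Results below that change without batch 3 are therefore given both ways.

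The annotated starts of Cdkn1a and Cdk4 are shown because Cdkn1a carries the main difference described below and Cdk4 was the most abundant member. Promoter windows of 300 bases (RefSeq, GRCm38.p6) were found for 6 of the 9 members, in 9 windows. They were searched on both strands for CACGTG (the E-box that Myc proteins can bind), for the 4 E2F sequences TTTCCCGC, TTTCGCGC, TTTGCCGC and TTTGGCGC, for the cAMP response element TGACGTCA, and for the 20-base p53 response element with at most 1 mismatch and no spacer; none of the matches overlapped. Capitals mark a match, here the p53 element in the upstream Cdkn1a window (chr17:29090729-29091028, plus strand) and CACGTG in the Cdk4 window (chr10:127063285-127063584, plus strand).
Cdkn1a: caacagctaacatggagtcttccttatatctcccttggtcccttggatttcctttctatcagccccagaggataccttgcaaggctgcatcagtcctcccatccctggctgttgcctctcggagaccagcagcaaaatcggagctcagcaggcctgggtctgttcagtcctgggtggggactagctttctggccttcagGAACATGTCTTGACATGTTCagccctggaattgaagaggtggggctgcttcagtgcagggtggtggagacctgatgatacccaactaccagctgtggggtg
Cdk4: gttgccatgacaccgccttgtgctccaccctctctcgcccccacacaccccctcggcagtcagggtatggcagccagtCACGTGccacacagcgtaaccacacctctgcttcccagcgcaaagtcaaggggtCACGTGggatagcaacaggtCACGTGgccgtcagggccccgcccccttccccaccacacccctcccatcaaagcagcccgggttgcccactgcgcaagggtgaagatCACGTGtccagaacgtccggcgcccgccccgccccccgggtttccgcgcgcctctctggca
The p53 element was in 0.067% of the 32851 promoter windows of the genome (22 windows). CACGTG was in 7.15% of windows, and it occurred 4 times in that of Cdk4, and once each in those of Cdk6 and of 1 of the 2 Cdkn2c starts. The E2F sequences were in 2.26% and the cAMP response element in 1.79% of windows, and in none of the 9 of the members. The second Cdkn1a start lies at chr17:29093519-29093818, and its window held none of the motifs. A match describes the letters alone, and these libraries measured RNA, not binding.
Cdkn1a, second start: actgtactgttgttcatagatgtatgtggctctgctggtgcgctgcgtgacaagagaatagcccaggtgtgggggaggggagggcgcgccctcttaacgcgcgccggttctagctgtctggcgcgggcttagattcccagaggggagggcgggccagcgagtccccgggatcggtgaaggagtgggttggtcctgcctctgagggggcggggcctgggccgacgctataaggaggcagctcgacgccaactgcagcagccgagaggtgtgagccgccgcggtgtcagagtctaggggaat

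Cdkn1a was the member that differed most between populations, high in every NSC library and low in GRP3 and PFMP of batches 1, 2 and 4. The gene lies on chromosome 17 (29090976 to 29100727, plus strand, GENCODE vM21 on GRCm38). NSC had 164, 207, 204 and 175 RPKM in batches 1 to 4, a mean of 187.5 ± 21.2 (SD, n = 4). GRP3 had 5.06, 2.90, 197 and 6.85 RPKM, and PFMP had 2.45, 7.55, 186 and 18.7 RPKM. The groups do not overlap in batches 1, 2 and 4, where every NSC library was above every GRP3 and PFMP library, by 9.37 to 71.5 times within a batch. In batch 3 the same ratios were 1.03 and 1.10. The share of all genes that separated these groups in batches 1, 2 and 4 was not counted.

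BNAP/GRP1 and GRP2/MP3 lay between NSC and the CD140a+ gates in batches 1 and 2, while in batch 4 BNAP/GRP1 was below PFMP and in batch 3 all 5 were close. Cdkn1a was at 63.6, 113, 187 and 12.7 RPKM in BNAP/GRP1 and at 64.2, 161, 194 and 51.3 RPKM in GRP2/MP3. NSC was above both in all 4 batches, by 1.05 to 13.8 times. The 13.8 came from BNAP/GRP1 4, the library with the lowest depth ratio, which is uncertain there, and the other ratios were 1.05 to 3.42. The spread within each of these gates exceeded their distance from each other. Averaged without batch 3, the order of levels was NSC (182 ± 22.5 RPKM, SD, n = 3), GRP2/MP3 (92.1 ± 59.8), BNAP/GRP1 (63.1 ± 50.2), PFMP (9.57 ± 8.32) and GRP3 (4.93 ± 1.98).

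**Figure D1:**
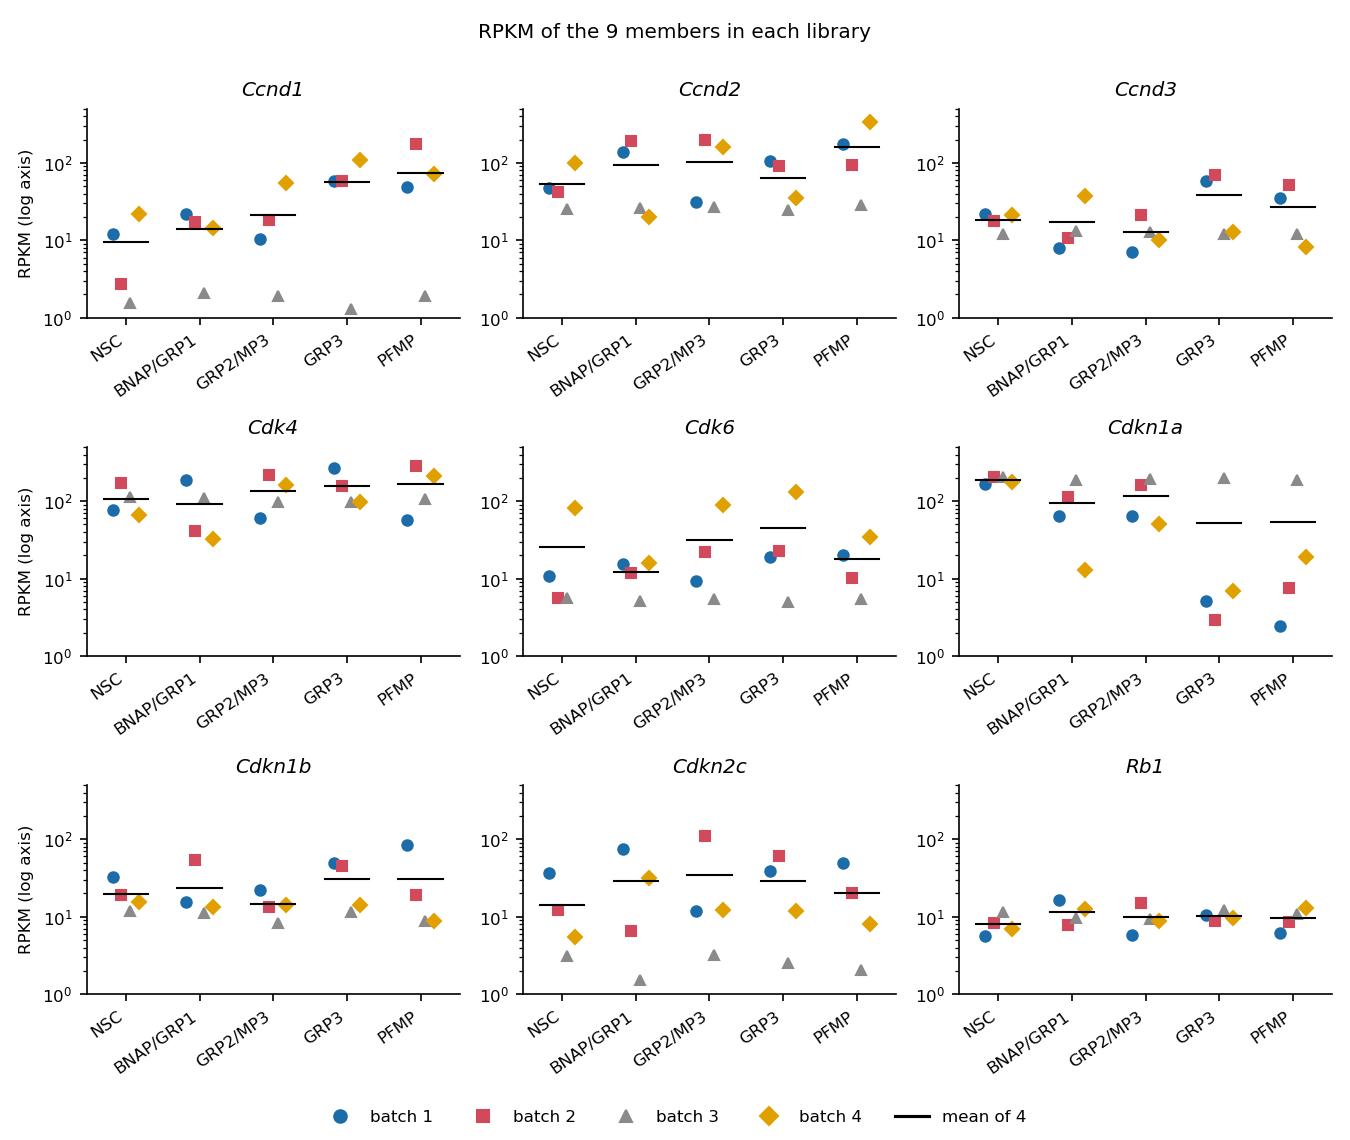
RPKM (log axis) of each of the 9 members in the 20 libraries, by population, with the marker giving the batch and the line the mean of 4 libraries. Cdkn1a lies at 164 to 207 RPKM in NSC and at 2.45 to 18.7 in GRP3 and PFMP outside batch 3, while the grey triangles of batch 3 lie at about the same height in all 5 populations.

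The study set each progenitor against NSC, and those 4 comparisons lead here. With limma and no batch term, 0 of the 9 members passed an adjusted p of 0.05 (Benjamini-Hochberg over all genes tested) in any of them, where 1.14% of all genes passed for PFMP, 1.05% for GRP3, 1.12% for GRP2/MP3 and 0.76% for BNAP/GRP1. At an unadjusted p under 0.05, limma gave 1 member in GRP3 and 1 in PFMP, in both cases Cdkn1a, and none in the other 2 gates, where 5.62% to 5.9% of all genes had such a p. The log2 fold change of Cdkn1a was -3.76 ± 1.16 (SE) in GRP3 (limma adjusted p = 0.212) and -3.37 ± 1.16 in PFMP (adjusted p = 0.326). In GRP2/MP3 it was -0.88 ± 1.16 (adjusted p = 1) and in BNAP/GRP1 -1.51 ± 1.16 (adjusted p = 0.866), neither of which passed. Without the library BNAP/GRP1 4 the fold change in BNAP/GRP1 was -0.75.

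Since the libraries of a batch deviated together, the same model was fitted with the batch as a block. Cdkn1a then fell below NSC in GRP3 (adjusted p = 0.0161) and in PFMP (adjusted p = 0.0333), so that 1 of 9 members was called in each, beside 2.6% and 2.79% of all genes. In BNAP/GRP1 and GRP2/MP3, 0 of 9 were called (backgrounds 2.09% and 3.08%), with none at an unadjusted p under 0.05 (14.4% and 10.9% of all genes). When batch 3 was left out as well, the fold change of Cdkn1a was -5.00 ± 0.78 in GRP3 (adjusted p = 0.00138) and -4.45 ± 0.78 in PFMP (adjusted p = 0.00368). That fit called 2 of 9 members in each of GRP3 and PFMP (backgrounds 2.66% and 2.78%) and 0 in BNAP/GRP1 and GRP2/MP3 (1.9% and 2.96%; 1 and 0 members at an unadjusted p under 0.05, with 14.9% and 10.5% of all genes).

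The call rested on all of batches 1, 2 and 4. With the block and without batch 1, 2 or 4, the adjusted p of Cdkn1a was 0.12, 0.203 and 0.136 in GRP3 and 0.341, 0.241 and 0.146 in PFMP, with log2 fold changes between -3.52 and -2.63. Without the block, leaving out the GRP3 library of batch 3 alone gave an adjusted p of 0.0187 for GRP3. Over all alternatives its adjusted p ran from 0.00138 to 1 in GRP3 and from 0.00368 to 1 in PFMP, and the sign was negative in each.

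NSC against the mean of the 4 progenitors gave a log2 difference in Cdkn1a of 2.38 ± 0.92 (limma adjusted p = 0.384). No member was called (0 of 9, background 1.98%), with Cdkn1a alone at an unadjusted p under 0.05, as were 6.87% of all genes. With the batch as a block Cdkn1a was called (adjusted p = 0.0474, 1 of 9 members, background 4.36%), and likewise without batch 3 (3.14 ± 0.62, adjusted p = 0.00615, 1 of 9, background 3.83%); over all alternatives the adjusted p ran from 0.00615 to 1. Within each batch the 4 progenitor libraries were all below NSC, 16 of 16 in all, although in batch 3 the differences were only -0.13 to -0.05 on the log2 scale. How many of all genes had this order was not counted, so it is not known to be particular to Cdkn1a.

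The CD140a+ gates (GRP3 and PFMP) were next set against the CD140a- progenitor gates (BNAP/GRP1 and GRP2/MP3). Cdkn1a differed by -2.37 ± 0.82 on the log2 scale (limma adjusted p = 0.773). No member and no gene was called without the batch term (0 of 9, background 0%; 1 member and 4.41% of genes at an unadjusted p under 0.05). With the block 0 of 9 were called (background 1.44%; Cdkn1a adjusted p = 0.0524, 2 members and 12.2% of genes at an unadjusted p under 0.05). Without batch 3 and with the block, Cdkn1a (-3.16 ± 0.55, adjusted p = 0.00511) and Ccnd1 were called, 2 of 9 with a background of 3.2%; over all alternatives the adjusted p of Cdkn1a ran from 0.00156 to 0.998.

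Direct comparisons of single progenitor gates called 0 of 9 members and 0% of genes in all 6 cases, with or without the block. Without the block, Cdkn1a had an unadjusted p under 0.05 against GRP2/MP3 in both GRP3 (log2 fold change -2.88 ± 1.16) and PFMP (-2.49 ± 1.16), and the other 4 comparisons had no member there, with 0.304% to 4.91% of all genes over the 6. With the block, Cdkn1a was under it in 4 of the 6 and Ccnd1 in 2 (PFMP against each CD140a- gate), with 0.945% to 18.9% of all genes. Without batch 3 and with the block, Cdkn1a was lower in GRP3 than in GRP2/MP3 (-3.85 ± 0.78, adjusted p = 0.0434; range over all alternatives 0.0112 to 1), which was 1 of 9 members with a background of 0.521%. The same fit called 0 of 9 in PFMP against GRP2/MP3 (0.206%), in GRP2/MP3 against BNAP/GRP1 (0.00375%), and in the other 3 (0%).

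**Figure D2:**
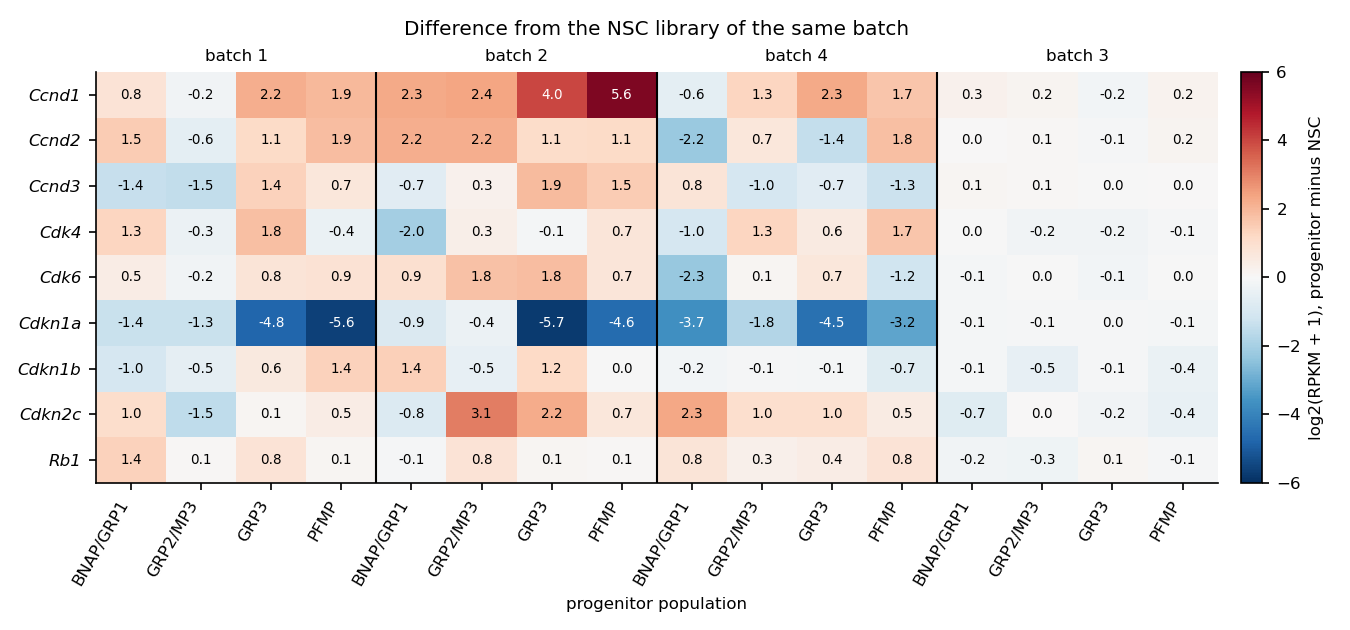
Difference in log2(RPKM + 1) of each member between a progenitor library and the NSC library of the same batch, with batches set apart by black lines and red for higher than NSC. Cdkn1a is lower in all 16 cells and Ccnd1 higher in GRP3 and PFMP of batches 1, 2 and 4, and in batch 3 the differences of all members lie between -0.71 and 0.27.

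Markers of other cells moved with Cdkn1a in some libraries and not in others. In batches 1, 2 and 4 the NSC libraries, at 164 to 207 RPKM of Cdkn1a, carried the 2634 to 13010 summed RPKM of the ependymal list and only 45.2 to 94.3 of a list of 12 microglia genes. Among progenitors of those batches, the 5 libraries of BNAP/GRP1 and GRP2/MP3 with 901 to 15440 summed RPKM of the microglia list had 51.3 to 161 RPKM of Cdkn1a. BNAP/GRP1 4, at 174.5 RPKM of the microglia list, had 12.7, and the GRP3 and PFMP libraries, at 22.2 to 159, had 2.45 to 18.7. In batch 3 every library had 3860 to 4284 of the microglia list and 186 to 204 RPKM of Cdkn1a. The ependymal list in batch 3 was at 1149 in NSC and 3.72 to 5.79 in the progenitors. Among the progenitors of the other batches, GRP2/MP3 2 had 5.38 of the ependymal list with 161 RPKM of Cdkn1a. GRP2/MP3 4 had 522 of it with 51.3 RPKM, and 7332 summed RPKM of 6 pericyte markers. A list of 7 endothelium markers in batches 1, 2 and 4 was at 46.05 to 257 in NSC and 104 to 151 in GRP2/MP3. In GRP3 and PFMP of those batches it was at 5.84 to 17.7. BNAP/GRP1 did not follow this: BNAP/GRP1 1 had 9.19 of it with 63.6 RPKM of Cdkn1a, and BNAP/GRP1 4 had 74.3 with 12.7. In batch 3 the endothelium list was at 5.33 to 10.9. No listed microglia or ependymal marker was at 0 in all libraries of a gate. The part of any of these cell types in the Cdkn1a values was not tested.

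**Figure D3:**
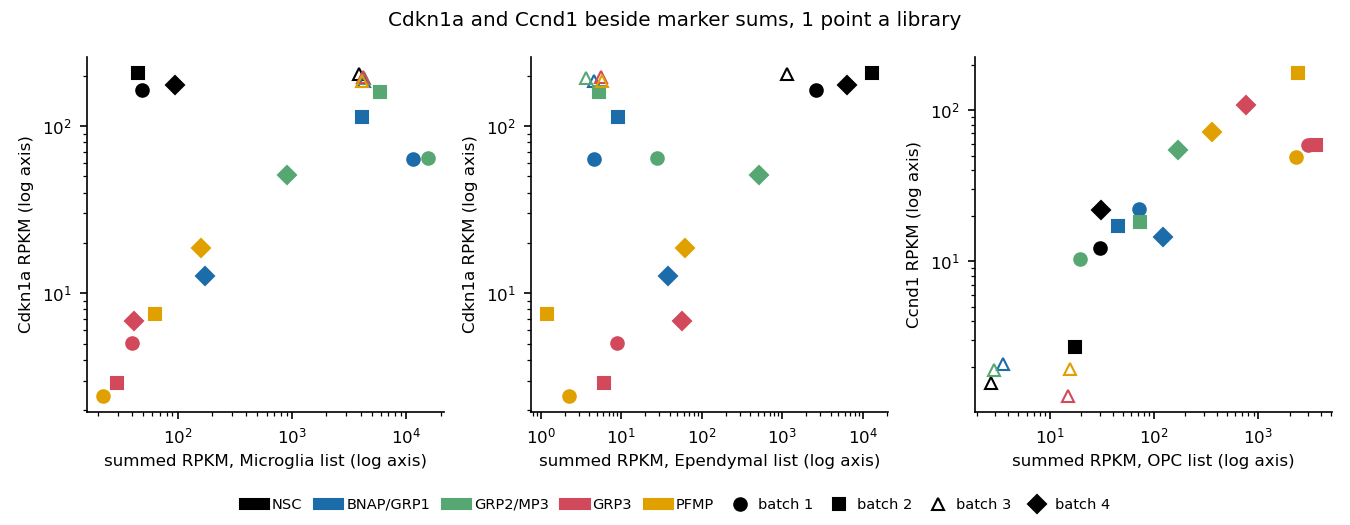
Cdkn1a against the summed RPKM of the microglia list (left) and of the ependymal list (middle), and Ccnd1 against the OPC list (right), 1 point a library on log axes, with colour for the population and shape for the batch. NSC libraries of batches 1, 2 and 4 combine 164 to 207 RPKM of Cdkn1a with at most 94.3 of the microglia list, and the progenitors of those batches with 22.2 to 174.5 of it have 2.45 to 18.7 RPKM.

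Ccnd1, the D cyclin that growth factor signals induce most directly, went the other way. It lies on chromosome 7 (144929931 to 144939925, minus strand). NSC had 12.2, 2.70, 1.55 and 21.8 RPKM in batches 1 to 4. GRP3 had 58.9, 58.8, 1.29 and 108 RPKM, and PFMP had 49.2, 176, 1.93 and 71.3 RPKM. In batches 1, 2 and 4 both gates were 3.28 to 65.1 times above NSC and also above BNAP/GRP1 (22.1, 17.2 and 14.4 RPKM) and GRP2/MP3 (10.4, 18.1 and 54.6). In batch 3 all 5 libraries were at 1.29 to 2.09 RPKM and did not separate. How many of all genes separated these gates in the other batches was not counted.

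The study, which tested these data with DESeq2, names Ccnd1 in a network of upregulated genes that it ascribes to PFMP alone. Here, over all 20 libraries and with limma, the difference of Ccnd1 from NSC did not pass in any gate. Its log2 fold change was 2.08 ± 1.27 in GRP3 and 2.34 ± 1.27 in PFMP (limma adjusted p = 1 in both), and the block brought the adjusted p to 0.126 and 0.0664. The size rested on single libraries and batches: without the block it ran in GRP3 from 1.43 (without batch 2) to 3.33 (without GRP3 3), and in PFMP from 1.26 (without batch 2) to 3.56 (without PFMP 3), none of which passed. With the block and without batch 2 the adjusted p was 0.661 in GRP3 and 0.778 in PFMP. With batch 3 left out and the block, Ccnd1 rose in GRP3 (2.82 ± 0.72, adjusted p = 0.0486) and in PFMP (3.06 ± 0.72, adjusted p = 0.029), and the CD140a+ gates were above the CD140a- gates by 1.94 ± 0.51 (adjusted p = 0.0499). These 3 values lie just under the threshold or near it, and over all alternatives the adjusted p ran from 0.0486 to 1, 0.029 to 1 and 0.046 to 0.998. With the block and the library BNAP/GRP1 4 left out, that of PFMP was 0.049. In BNAP/GRP1 (0.70 ± 1.27) and GRP2/MP3 (0.91 ± 1.27) Ccnd1 was not called in any fit. The OPC list moved with it, at 360 to 3556 summed RPKM in GRP3 and PFMP of batches 1, 2 and 4 and 17.5 to 169 in the other libraries of those batches, and its part in the Ccnd1 values was not tested. That list holds Pdgfra, the gene of the antigen CD140a by which GRP3 and PFMP were sorted.

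**Figure D4:**
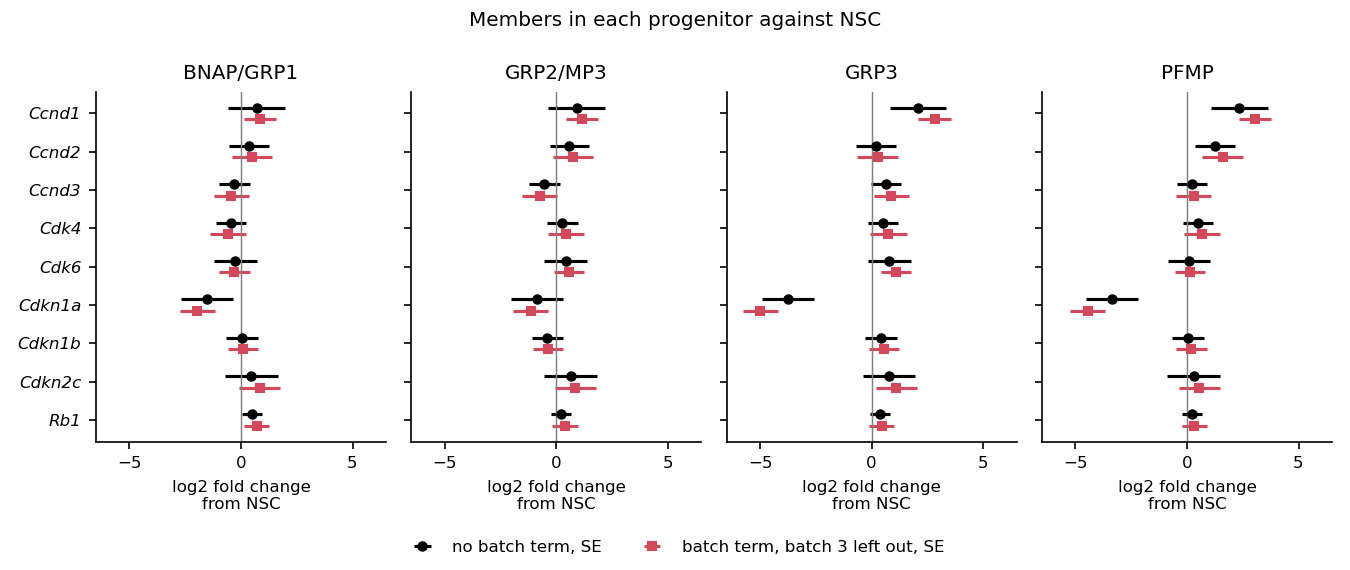
Log2 fold change of each member in each progenitor against NSC, with bars of 1 SE, from all 20 libraries without a batch term (black) and from batches 1, 2 and 4 with one (red). Cdkn1a lies at -3.76 and -3.37 in GRP3 and PFMP (black) and Ccnd1 at 2.08 and 2.34, and the black values of the other 7 members lie between -0.54 and 1.24.

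Ccnd2 was the most abundant D cyclin in 17 of the 20 libraries. The gene, which encodes the D cyclin most tied to neural precursors, lies on chromosome 6 (127125162 to 127152193, minus strand). Its levels spread too widely for an order of gates: 28.8 to 341 RPKM in PFMP, 24.3 to 106 in GRP3, 27.2 to 195 in GRP2/MP3, 20.2 to 193 in BNAP/GRP1 and 25.7 to 98.4 in NSC. PFMP was above NSC in all 4 batches, at a log2 fold change of 1.24 ± 0.89 that did not pass (limma adjusted p = 1, and 0.585 with the block). The share of all genes with this order was not counted.

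Ccnd3, the D cyclin widely used in blood cells and also found in many tissues, lies on chromosome 17 (47505051 to 47599691, plus strand). In batches 1 and 2 GRP3 and PFMP had 35.6 to 68.9 RPKM, above NSC (17.6 and 21.8) and above BNAP/GRP1 and GRP2/MP3 (7.11 to 21.4). In batch 4 PFMP and GRP3, at 8.15 and 12.9 RPKM, were below NSC (21.3) and BNAP/GRP1 (36.8) and overlapped with GRP2/MP3 (10.1). How many of all genes separated the gates in batches 1 and 2 was not counted. The log2 fold change from NSC was 0.65 ± 0.69 in GRP3 and 0.23 ± 0.69 in PFMP, and neither passed (limma adjusted p = 1 in both). The CD140a+ gates were above the CD140a- gates by 0.86 ± 0.48 on the log2 scale (limma adjusted p = 0.895). Over all alternatives that adjusted p ran from 0.0139 to 0.998.

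As shares of the summed RPKM of the 3 D cyclins, which do not move with the scaling of a library, Ccnd1 made up 31.4% ± 27.4 (SD, n = 4) in GRP3, 23.7% ± 21.4 in PFMP, 14.5% ± 9.84 in GRP2/MP3, 11.6% ± 6.65 in BNAP/GRP1 and 9.66% ± 6.39 in NSC. Ccnd2 held the largest share in 17 of 20 libraries, all 4 of NSC included. The 3 exceptions were GRP3 4, where Ccnd1 held 69.2%, PFMP 2, where it held 54.4%, and BNAP/GRP1 4, where Ccnd3 held 51.6%. The last of these is the library with the lowest depth ratio, which is uncertain in its batch.

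Mean shares were compared by a two-sided exact permutation test, in 6 tests adjusted together. The Ccnd1 share was 27.6% in the CD140a+ gates and 13.03% in the CD140a- gates (difference 14.5 points, 8 against 8 libraries, exact p = 0.123, adjusted p = 0.415). It was 9.66% in NSC and 20.3% in the progenitors (4 against 16 libraries, exact p = 0.261, adjusted p = 0.522). The Ccnd2 share was 52.7% in the CD140a+ and 68.0% in the CD140a- gates (exact p = 0.138, adjusted p = 0.415). None of the 6 passed, with all 4 batches or with any 1 of them left out, although designs of this size could reach 0.000206 and 0.000155. This test moves libraries across batches. When they were exchanged only within a batch, the Ccnd1 share gave an exact p of 0.0741 between the CD140a+ and CD140a- gates and of 0.118 between NSC and the progenitors, and the Ccnd2 share 0.174 and 0.685, and again none passed (adjusted p of at least 0.349, smallest p possible 0.00154 and 0.0016).

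Batch by batch, the Ccnd1 share in NSC was below the mean of the 4 progenitors in 4 of 4 batches, by differences of -4.97, -19.8, -0.445 and -17.3 points. The CD140a+ gates were above the CD140a- gates in batches 1, 2 and 4, by 5.28, 32.8 and 20.8 points, and not in batch 3 (-0.858).

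**Figure D5:**
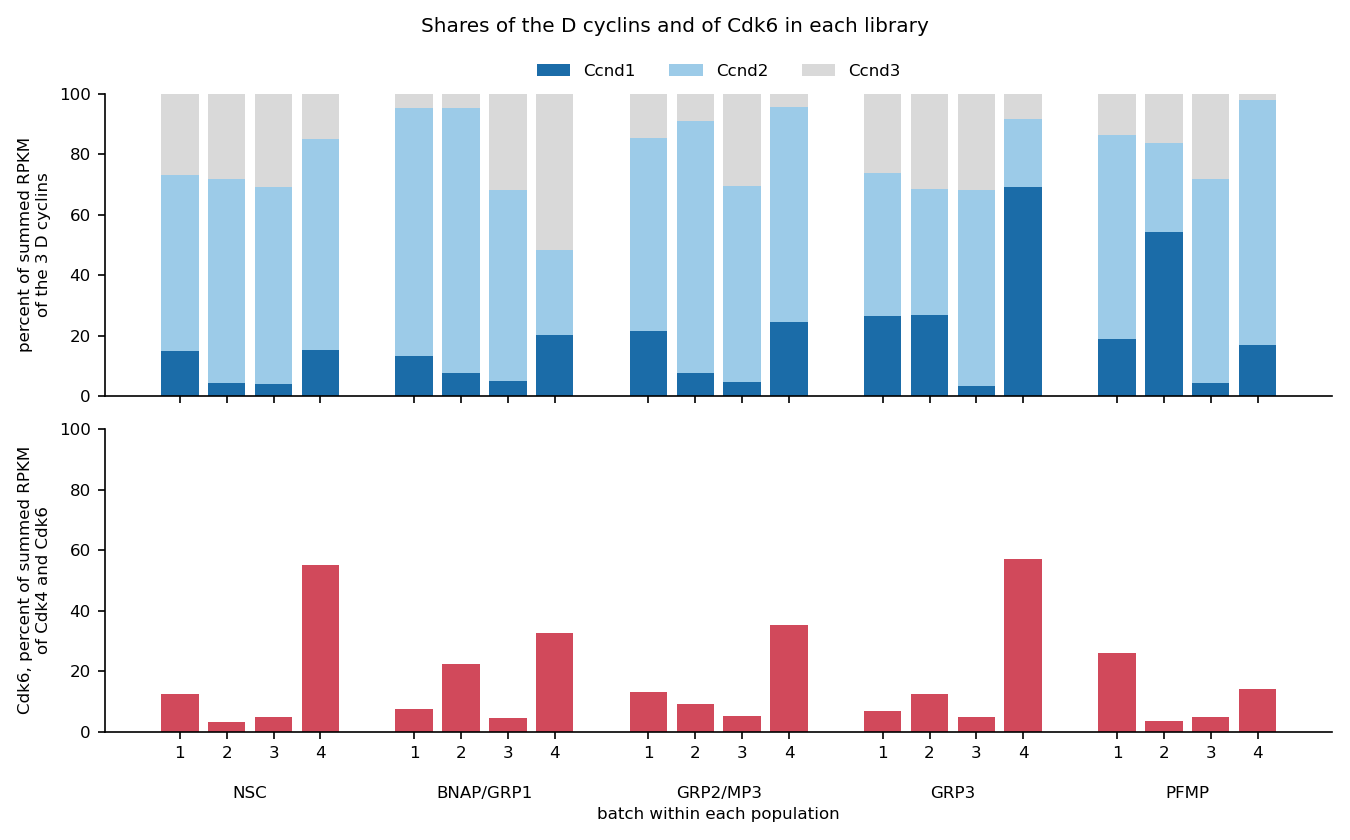
Percent of the summed RPKM of the 3 D cyclins held by each of them (top) and percent of the summed RPKM of Cdk4 and Cdk6 held by Cdk6 (bottom), 1 bar a library, by population and batch. Ccnd1 reaches 69.2% in GRP3 4 and 54.4% in PFMP 2, and Cdk6 passes 50% in NSC 4 and GRP3 4 only.

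Of the kinases, Cdk4 was the more abundant in 18 of 20 libraries. Cdk4 lies on chromosome 10 (127063534 to 127067920, plus strand) and ranged from 32.7 RPKM in BNAP/GRP1 4 to 281 RPKM in PFMP 2, with means of 165 ± 101 in PFMP, 156 ± 81.4 in GRP3, 135 ± 69.4 in GRP2/MP3, 107 ± 47.5 in NSC and 92.7 ± 71.6 in BNAP/GRP1 (SD, n = 4). The ranges of all 5 populations overlap. No fold change against NSC exceeded 0.51 ± 0.67 on the log2 scale, that of GRP3, and none passed (limma adjusted p of at least 0.869).

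Cdk6, on chromosome 5 (3341485 to 3531008, plus strand), varied by batch more than by gate. It lay at 4.99 to 5.62 RPKM in batch 3 and at 5.66 to 22.8 in batches 1 and 2. In batch 4 it was at 130 RPKM in GRP3, 88.5 in GRP2/MP3, 81.3 in NSC, 34.7 in PFMP and 15.8 in BNAP/GRP1. Its share of the summed kinases was 18.8% ± 24.5 in NSC and between 12.1% ± 10.4 and 20.3% ± 24.7 in the 4 progenitors. The CD140a+ and CD140a- gates had means of 16.2% and 16.2% (exact p = 0.997), and NSC and the progenitors 18.8% and 16.2% (exact p = 0.835, adjusted p = 0.997 for both). The log2 fold change of Cdk6 from NSC was 0.79 ± 0.96 in GRP3, where it was higher in 3 of 4 batches, and it did not pass.

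Apart from Cdkn1a, the inhibitors showed no call in any comparison. Cdkn1b, which can arrest a precursor as it leaves the cycle to differentiate, lies on chromosome 6 (134920401 to 134925513, plus strand). Its means were 30.5 ± 36.8 RPKM in PFMP, 30.3 ± 20.3 in GRP3, 23.5 ± 20.4 in BNAP/GRP1, 19.8 ± 9.01 in NSC and 14.6 ± 5.76 in GRP2/MP3 (SD, n = 4), and the highest library was PFMP 1 (85.2). GRP2/MP3 was below NSC in all 4 batches, by a log2 fold change of -0.40 ± 0.71 that did not pass (limma adjusted p = 1). The share of all genes with this order was not counted.

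Cdkn2c, on chromosome 4 (109660876 to 109667189, minus strand) and coding for a protein of the INK4 family, showed no order of gates that held across batches. In batch 2 it ran from 6.49 RPKM in BNAP/GRP1 to 110 in GRP2/MP3, and in batch 1 from 11.99 in GRP2/MP3 to 75.2 in BNAP/GRP1, so that these gates changed places. Against NSC its log2 fold changes were 0.31 to 0.78 with an SE of 1.18.

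Which inhibitor had the highest RPKM differed between gates. Cdkn1a led in 4 of 4 NSC libraries, and in batches 1, 2 and 4 it led in 4 of 6 libraries of BNAP/GRP1 and GRP2/MP3 and in 1 of 6 of GRP3 and PFMP. In the other 5 of those 6, Cdkn1b led in 3 (GRP3 1, GRP3 4 and PFMP 1) and Cdkn2c in 2 (GRP3 2 and PFMP 2). This is a description of levels per gene length, and no test was made of it.

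Rb1, the substrate of the kinases, kept to a narrow range. It lies on chromosome 14 (73183673 to 73325822, minus strand) and stayed between 5.596 and 16.2 RPKM in all 20 libraries. The mean was 8.04 ± 2.51 RPKM in NSC and 9.62 to 11.6 in the 4 progenitors. GRP3 was above NSC in all 4 batches, an order not counted over all genes, at a log2 fold change of 0.36 ± 0.45 that did not pass (limma adjusted p = 1). The highest fold change was 0.47 ± 0.45, in BNAP/GRP1 (adjusted p = 0.866).

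Among all 108 tests of 9 members in 12 comparisons, limma without a batch term gave 6 with an unadjusted p under 0.05, all of them Cdkn1a, where the share of all genes ran from 0.304% to 6.87% by comparison. Their number over the 108 is thus near the background. The median log2 fold change over all genes against NSC was itself not 0: it was -0.20 in PFMP, 0.05 in GRP3, -0.08 in GRP2/MP3 and 0.38 in BNAP/GRP1. Quantile normalization moved these to 0.07, 0.04, 0.04 and 0.09. Under it or under median-of-ratios scaling, 13 of the 108 fold changes changed sign, the largest of them 0.43 in size as deposited (Cdkn1b in GRP2/MP3 against BNAP/GRP1), and none was of Cdkn1a or Ccnd1.

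The wider pathway was read from 4 lists of genes. The G1/S list (cyclin E genes, Cdk2, the other inhibitors, E2F factors and pocket proteins, and factors that turn over or assemble D cyclin complexes) had 30 genes, all tested, and 0 were called in either direction in any of the 12 comparisons, without or with the block or without batch 3. The backgrounds are those given above for the members. An unadjusted p under 0.05 was reached by 1 gene in BNAP/GRP1, 1 in GRP2/MP3, and 1 in NSC against all progenitors. The median of the list against NSC was 0.08 in PFMP, 0.33 in GRP3, 0.03 in GRP2/MP3 and 0.22 in BNAP/GRP1, beside the all-gene medians above. Its most abundant genes were Cks1b, a kinase cofactor that works with Skp2 (139.9 ± 98.2 RPKM in NSC and 112 ± 74.1 in GRP3), Ccnh, the cyclin of the kinase that activates other kinases (28.9 ± 12.5 and 60.9 ± 28.1), and Cdkn2d, an inhibitor of Cdk4 and Cdk6 (32.5 ± 13.9 and 30.9 ± 20.2).

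The E2F target list (replication licensing, nucleotide synthesis and mitosis genes) had 21 genes, with medians against NSC of 0.64, 0.65, 0.41 and 0.37 in the same order. None of the 21 was called in the fit to all 20 libraries without the block, with 2, 2, 2 and 3 at an unadjusted p under 0.05 (5.88%, 5.62%, 5.79% and 5.9% of all genes). With the block, Tk1, the thymidine salvage kinase, rose in BNAP/GRP1 (log2 fold change 2.23 ± 0.92 without the block, limma adjusted p = 0.0273 with it). Mcm5, a subunit of the replicative helicase, and Mki67, the proliferation marker, were lower in NSC than in the mean of the progenitors. Their log2 differences were -1.82 ± 0.56 and -1.57 ± 0.46 without the block, with limma adjusted p = 0.0181 and 0.0274 with it. The same 2 genes were called without batch 3 and without the block (adjusted p = 0.0355 and 0.0443, background 2.71%). Without batch 3 and with the block, Mcm5 also rose in GRP3 (adjusted p = 0.0357) and PFMP (adjusted p = 0.0431). Mcm5 had 1.75 ± 0.96 RPKM in NSC and 9.56 to 11.4 on average in the progenitors, and Mki67 had 1.29 ± 1.01 and 5.14 to 6.60. Not all members went this way: Cdk1, the mitotic kinase, had 63.0 ± 64.0 RPKM in NSC and 25.4 to 50.9 on average in the progenitors, Top2a had 40.2 ± 15.9 and 38.4 to 44.4, and Pcna had 156 ± 90.2 and 234 to 493. These 3 had the highest mean RPKM of the list and were not called.

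The p53 target list, which leaves out Cdkn1a, had 17 genes, and 0 were called in any comparison in the fit to all 20 libraries without the block. Against NSC, 1, 1, 0 and 0 had an unadjusted p under 0.05 in the same order, beside the shares of all genes just given. Its medians against NSC were -0.15, -0.05, -0.19 and -0.27. With the block 1 gene, the death receptor gene Fas, fell in GRP3 and in PFMP (limma adjusted p = 0.0197 and 0.0127). Fas was also higher in NSC than in the mean of the progenitors (adjusted p = 0.00703). These 3 log2 differences, with the SE of the fit without the block, were -2.84 ± 1.34, -3.00 ± 1.34 and 2.43 ± 1.06. Mdm2, the feedback inhibitor of p53, was at 54.7 ± 35.4 RPKM in NSC and at 41.6 to 51.0 on average in the progenitors. Btg2, a growth arrest gene and the most abundant of the list, was at 423 ± 766 in NSC and 42.2 ± 16.9 in GRP3, and Bax and Plk2, next in abundance, had fold changes of 0.22 ± 0.74 and 0.52 ± 1.60 in GRP3. None of these 4 was called. Without batch 3, Fas also fell in GRP2/MP3, both with the block (adjusted p = 0.0128) and without it (adjusted p = 0.0332). That fit without the block called Fas in GRP3, PFMP and NSC against the mean as well (adjusted p of 0.00272 to 0.00789), and in GRP2/MP3, GRP3 and PFMP the backgrounds were 1.95%, 1.84% and 1.88%. Without batch 3, Pmaip1, a pro-apoptotic gene, was lower in the CD140a+ than in the CD140a- gates (-3.23, adjusted p = 0.0178 with the block and 0.0223 without it, where the background was 2.23%).

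The quiescence and FOXO list had 12 genes, and it alone of the 4 had a call in the fit to all 20 libraries without the block. The study itself lists Hopx and Id4 among transcription factors lower in all 4 progenitors than in NSC. Those are the same data, so the calls of these genes below are no independent result. Hopx, a homeodomain gene expressed in quiescent stem cells of several tissues, fell in GRP2/MP3 (-3.18 ± 0.70, limma adjusted p = 0.023), GRP3 (-3.14 ± 0.70, adjusted p = 0.0269) and PFMP (-2.96 ± 0.70, adjusted p = 0.0389). In BNAP/GRP1 its log2 fold change was -2.42 ± 0.70, which did not pass (adjusted p = 0.181), and the direct comparisons of gates called no gene of the list. It had 77.7 ± 72.1 RPKM in NSC and 4.56 to 8.49 on average in the progenitors. With the block, Id4, an inhibitor of differentiation that marks resting stem cells, fell in all 4 gates (log2 fold changes of -4.11 to -3.39, adjusted p of 0.00121 to 0.00858). Klf4, a growth-arrest transcription factor, fell in PFMP (-2.04 ± 0.67 without the block, limma adjusted p = 0.0347 with it). With batch 3 left out as well, the fall of Id4 in BNAP/GRP1 did not pass (adjusted p = 0.0586) and that of Hopx there did (adjusted p = 0.049). The block called 3 genes of the list in PFMP, 2 in GRP3, 2 in GRP2/MP3 and 1 in BNAP/GRP1, all lower, and the medians of the list in that order were -0.42, -0.23, -0.29 and -0.0036. The 4 NSC libraries also carried the ependymal markers given above, and the part of ependymal cells in these values was not tested.

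For each member the genes of most similar pattern were found across the 20 libraries, by Pearson's r of log2(RPKM + 1) after the mean of each batch was taken out, among genes with a mean of at least 5 RPKM. The libraries share batches and cell sources, so these values describe the table. Cdkn1a was closest to Rnase4 (r = 0.94), Ifi27 (0.94) and Anxa5 (0.93), and Ccnd1 to RP23-357D17.3, Fyn and Gphn (0.91, 0.91 and 0.90). Ccnd2 was closest to Cat, Usp15 and Stmn1 (0.88, 0.87 and 0.87), and Ccnd3 to Src, Plxna1 and Dhx30 (0.96, 0.94 and 0.94). The kinases had Ppp2r1a, Gars and Rpl7l1 (0.93 each) for Cdk4 and Hnrnpa0, Fubp3 and Set (0.93 each) for Cdk6. Cdkn1b had Tmem181b-ps, Rufy2 and Cers4 (0.84, 0.84 and 0.80), Cdkn2c had Xiap, Apaf1 and Atp6v1h (0.95, 0.94 and 0.93), and Rb1 had Tex261, Hn1l and Zfp110 (0.86, 0.83 and 0.83). No member was among the 3 closest genes of another member. With the batch means left in, r was -0.24 for Ccnd2 with Cat, -0.36 for Cdkn2c with Atp6v1h and 0.08 for Cdk6 with Hnrnpa0. Other pairs stayed alike, such as Cdkn1a with Anxa5 (0.93) and Cdk6 with Fubp3 (0.97). The likeness of some pairs thus holds only within batches.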

How the data were processed

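RNA of sorted cells was amplified from polyA, made into Illumina libraries and sequenced on a NextSeq500. The study's methods name nf-core/rnaseq, FastQC 0.11.9, cutadapt 3.4, STAR 2.6.1 on GRCm38 and Salmon 1.9.0, and the authors' own tests used DESeq2 1.26.0. The deposited values are RPKM made by the authors for 45705 genes in 20 libraries. The read totals and gene lengths behind them are not given in the sources used here, so no count test was used. The table also has 26 unnamed columns that hold no values.

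Values were analysed as log2(RPKM + 1), which understates fold changes of low genes. The test covered 27614 genes that reached 1 RPKM in 4 or more libraries, in R 4.3.3 with limma 3.58.1: 1 mean for each population, trended prior, all 20 libraries, no batch term, Benjamini-Hochberg adjustment, threshold 0.05. The labels name a batch for each library, and this pairs them: residuals of libraries of 1 batch correlated at medians of 0.337, 0.262, 0.769 and 0.581 in batches 1 to 4 (lowest pair 0.0341), against -0.204 for libraries that share neither batch nor population. The fit with batch as a replicate block is therefore given beside each result it changes. The study describes the 4 replicates as independent experiments on pooled litters, and p-values measure the spread between them. Shares were tested by exact permutation, over all libraries and within batches.

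Other settings changed the pseudocount (to 0.1), the filter (none, or a mean of 5 RPKM), the scaling (median-of-ratios or quantile), the prior (without trend) and the populations fitted, or left out a library or a batch. The block with 1 batch or with BNAP/GRP1 4 left out, and batches 1 and 2 alone, were added after seeing the data. The steps were also run on simulated data with independent noise and no batch effect. Such data cannot show how the fits behave with libraries that deviate together by batch.

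The members, gene lists and marker lists were chosen with earlier results of these data known. All members are named. Of each list, the genes called in any comparison are named, otherwise the 3 of highest mean RPKM. Other genes that only the block called, and Mdm2, were named after their values were seen. Python 3.11.15 and matplotlib 3.10.9 drew the figures.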

Additional observations from a re-analysis of the deposited data

Results flagged for a closer look

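There were 2 results of the members that stood apart from the other libraries of their population by Dixon's test, out of 60 groups of 4 libraries tested, and chance flags about 1 in 20 groups. Levels were taken as log2(RPKM + 1) and shares as percent. Ccnd1 in GRP3 was at 1.29 RPKM in batch 3, against 58.8 to 108 RPKM in the other batches. The Cdk6 share of the summed kinases in GRP3 was 57.1% in batch 4, against 4.92% to 12.6% in the other batches. On the log scale Cdkn1a was not flagged in GRP3 or PFMP, although in batch 3 it had 197 and 186 RPKM there. In the other batches it had 2.90 to 6.85 RPKM in GRP3 and 2.45 to 18.7 in PFMP.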

How the results depend on the processing

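Calls are counted here over members and comparisons, so that a member called in 2 gates counts 2 times. Without a batch term there was no call, and this held under the other pseudocount, both other filters, both other scalings, the prior without a trend and the fit on the compared populations alone. The replicate block gave 2 calls against NSC and 1 in NSC against the mean of the progenitors, all of Cdkn1a, and it changed no other call of a member. The block with a batch or BNAP/GRP1 4 left out, and batches 1 and 2 alone, were chosen after seeing the data. With batch 3 also left out, the block gave 4 calls against NSC (Cdkn1a and Ccnd1 in GRP3 and PFMP), 1 between progenitors, 1 in NSC against the mean of the progenitors and 2 in GRP3 and PFMP against BNAP/GRP1 and GRP2/MP3. Batches 1 and 2 alone gave 3, 4, 1 and 3, and the block without BNAP/GRP1 4 gave 3 against NSC. The share of all genes called was not counted for these fits or for single libraries left out, so their counts have no background. With the block and without batch 1, 2 or 4, none was called. Leaving out 1 library or 1 batch without the block gave 0 to 2 calls against NSC, 0 between progenitors, 0 to 1 in NSC against the mean and 0 to 1 in GRP3 and PFMP against the other pair. The calls of 2 and 1 came without batch 3, and leaving out GRP3 3 alone gave 1. Of the single fold changes of at least 1 in size, 769 values under the alternatives kept their sign and side of the threshold and 29 passed it; none changed sign. Over the batches left out, the Ccnd1 share differed by -14.0 to -7.56 points between NSC and the progenitors and by 8.41 to 19.6 between the CD140a+ and CD140a- gates, the Ccnd2 share by 0.177 to 8.78 and -21.1 to -3.81, and the Cdk6 share by -3.30 to 6.41 and -2.02 to 2.54, so that the Cdk6 differences changed sign, without batch 4 and without batch 2. The cause was not tested. With 4 libraries a gate and the spread seen here, an SE of 1.27 on the log2 scale for Ccnd1 and 1.16 for Cdkn1a limits what can be called.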

Other observations

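Among the members themselves, Ccnd1 and Cdkn1a varied in opposite directions across the 20 libraries after the mean of each batch was taken out (Pearson's r = -0.75), as did Ccnd3 and Cdkn1a (-0.63). Cdkn2c and Rb1 varied together (0.62), and so did Ccnd1 and Cdk6 (0.52), while Cdk4 and Cdk6 had an r of 0.29. These are descriptions of libraries that share batches and cell sources, with no test.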
